A study of Mus musculus with 6 samples.

Results

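The nuclear-encoded subunits of respiratory complexes II, III, IV and V, with cytochrome c, were read on CodeLink mouse whole genome arrays of 3T3-L1 adipocytes. 3T3-L1 is a mouse preadipocyte line that fills with lipid when given an adipogenic mixture. All 6 arrays carried biotin-labelled total RNA from adipocytes taken 10 days after differentiation. The 3 control arrays came from cells that carried only the Tet-off plasmid, and the 3 UCP1 arrays from cells that expressed Uncoupling protein 1. Array numbers used here are the digits that end the sample titles, which in the UCP1 group read UCP1, UCP2 and UCP3. The labels do not say whether UCP1 cells also carried the Tet-off plasmid or whether each line was 1 clone. Nor do they say if the replicate arrays were separate cultures, and if they were not, the p-values here reflect technical spread alone. Members were the genes whose symbols name a subunit of these complexes, leaving out Cox7a1 and Cox8b, and each was read through whichever of its probes was brightest on average. There were 44 such genes, on 50 probes, among 18014 genes with a probe of 1 symbol, namely 4 of complex II, 9 of complex III, cytochrome c itself, 14 of complex IV and 16 of complex V.

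Complex II takes electrons from succinate, a tricarboxylic acid cycle intermediate, and passes them to ubiquinone. Complex III moves them from ubiquinol to cytochrome c, a small soluble carrier, and complex IV hands them to oxygen, with proton pumping at III and IV. Complex V, the ATP synthase, uses the returning protons to make ATP, while UCP1 lets protons return without ATP, which is how brown fat makes heat. The mitochondrial genome encodes cytochrome b of complex III, the catalytic core of complex IV and part of the membrane portion of complex V, and those transcripts are outside the members described here.

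Transcripts of these complexes were mostly a little lower in UCP1 adipocytes in the deposited scaling. The amount, and for 14 of 44 members the direction, changed after quantile normalization. In the deposited scaling the difference lay below 0 for 42 of 44 members, with a median of -0.39 on the log2 scale. The same median was -0.06 over 36116 tested probes, of which 56.9% lay below 0. 3 members fell past an adjusted p of 0.05 (limma, Benjamini-Hochberg over all tested probes), where 2.03% of all probes did. They were Sdhd of complex II, Cox7a2l, counted here with complex IV, and Atp5b of complex V. No member rose, where 0.8% of all probes did, and the members with an unadjusted p under 0.05 numbered 21 lower and 0 higher, against 11.8% and 5.3% of all probes. The 3 UCP1 arrays lay wholly below the 3 controls for 26 members and wholly above them for 0, where 14.0% and 7.88% of all probes did.

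**Figure D1:**
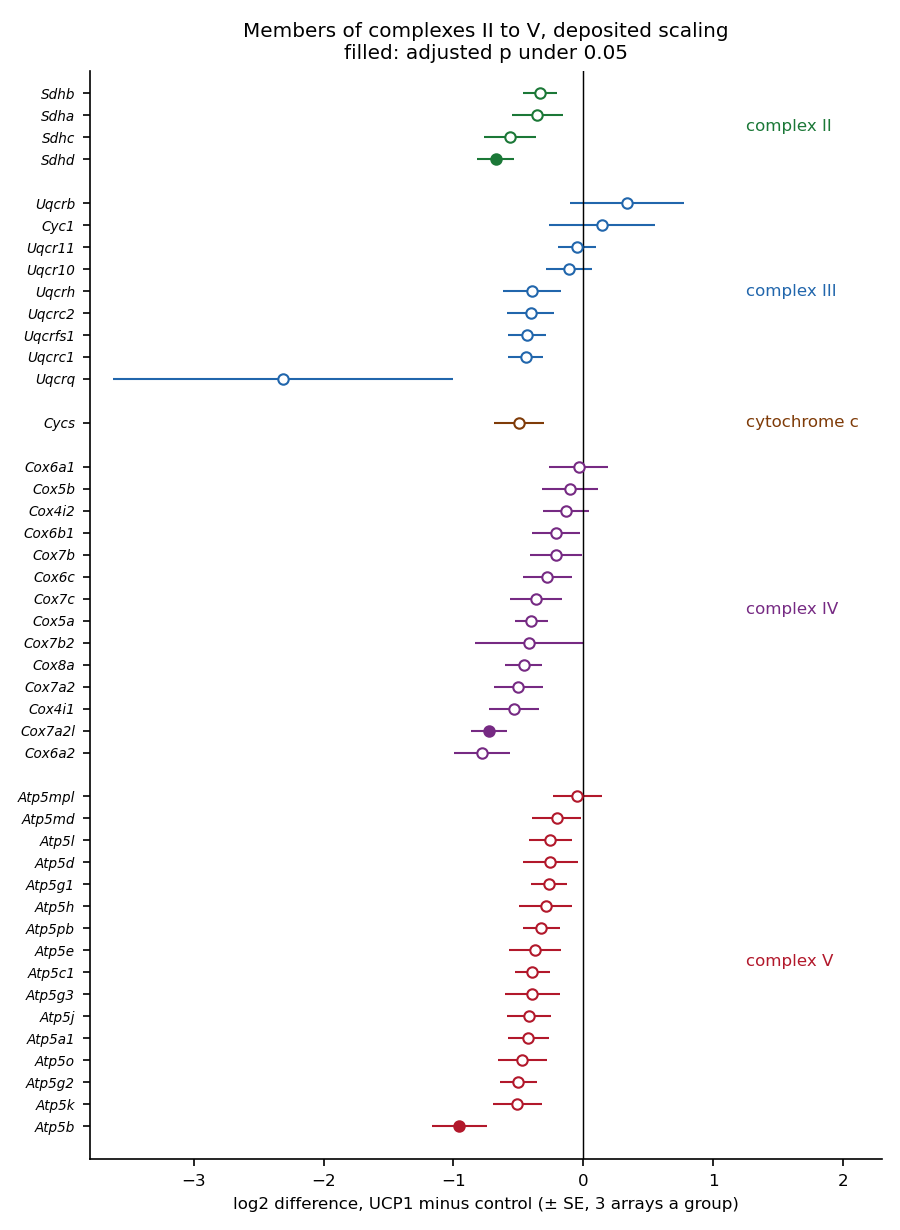
Log2 difference in intensity, UCP1 minus control, for each of the 44 members by complex, with bars of ± 1 SE from limma on 3 arrays a group. Filled circles mark the 3 members past an adjusted p of 0.05, and all but Cyc1 and Uqcrb lie below 0.

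The 3 calls were not stable. Without control 1, control 2 or UCP1 3 none passed, with adjusted p of 0.107 to 0.141, 0.0925 to 0.0987 and 0.115 to 0.194 (limma). Without UCP1 1, 11 of 44 members passed, all lower, where 4.45% of all probes fell, but Atp5b missed at an adjusted p of 0.0617. Without UCP1 2, 5 members passed, the same 3 with Atp5g2 and Sdhc, where 4.15% of all probes fell. With array weights 6 members passed, where 3.83% of all probes fell. When only probes at or above the median level were tested, 6 of 41 members passed, where 9.5% of those probes fell, and 11 of 41 passed without an intensity trend, where 9.11% did. All calls under these settings were lower.

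Scaling and brightness moved with the result. Array medians were alike, at 1.04 to 1.05, but the 99th percentile of intensity was 255 to 279 on control arrays and 185 to 225 on UCP1 arrays. Over the brightest 10% of probes, 3612 in number, the median difference was -0.19, 84.9% lay below 0 and 25.9% had all UCP1 arrays below all controls. Of the members 41 were at or above the median probe level. After quantile normalization, which gives every array the same distribution of values, the members' median was -0.093 and 28 of 44 lay below 0, against 47.8% of all probes. None passed there, where 1.23% of all probes fell (limma; 12 members and 17.4% of all probes had an unadjusted p under 0.05, 8 of the members lower). Cyclic loess, which removes differences between arrays that depend on level, gave a median of -0.15, with 32 of 44 members and 48.9% of all probes below 0. It made 0 calls among members, where 1.27% of all probes fell (limma; 11 members and 17.2% of all probes had an unadjusted p under 0.05). So the direction for single members below is given in the deposited scaling, and 14 of them turn sign after quantile normalization.

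**Figure D2:**
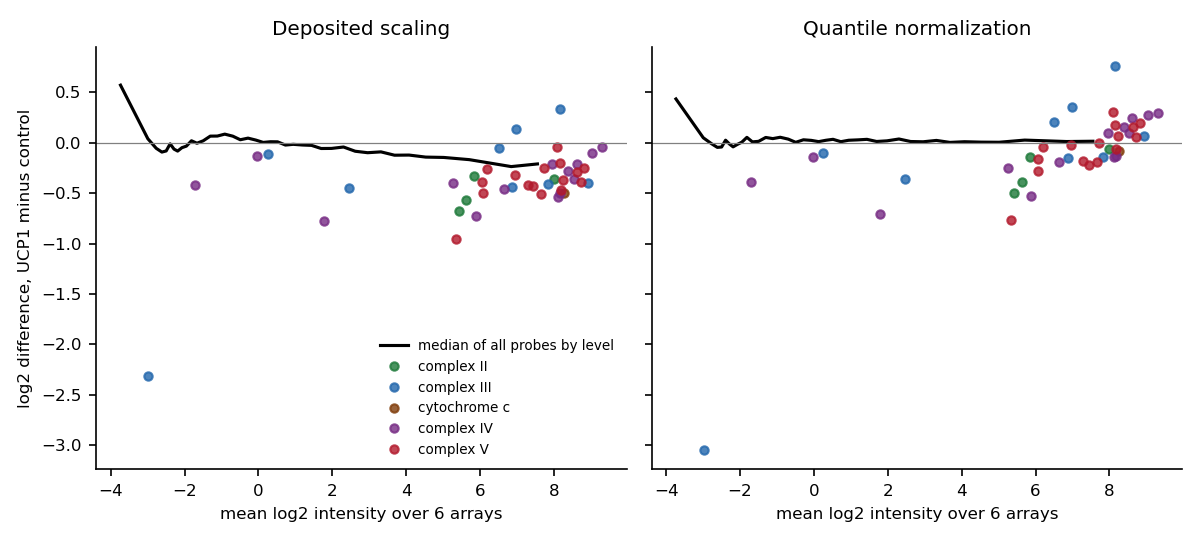
Log2 difference against mean log2 intensity over the 6 arrays for the 44 members, coloured by complex, with the black line giving the median difference of all tested probes in 40 equal bins of level. In the deposited scaling the line sinks toward the bright end, to -0.21 in the brightest bin, and after quantile normalization it lies at 0.02 there.

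The arrays were not alike within the UCP1 group. Taking each member's log2 intensity minus its control mean, the median over members was -0.12 on UCP1 1, -0.41 on UCP1 2 and -0.48 on UCP1 3, against 0.074, -0.047 and 0.0027 on controls 1, 2 and 3. After quantile normalization these UCP1 medians were 0.081, -0.13 and -0.069. UCP1 1 held the highest of the 3 UCP1 readings for 34 members, or 21 after quantile normalization. In the deposited scaling UCP1 2 held it for 8, which were Sdhc, Sdhd, Cox7a2l, Cox4i2, Atp5b, Atp5g1, Atp5g2 and Atp5pb, so all 3 called genes were among those whose UCP1 1 reading was not the highest. By median complex II read lowest on UCP1 1, at -0.53, where complexes III, IV and V read -0.06, -0.10 and -0.14. Its members were split: UCP1 1 read lowest of the UCP1 arrays for Sdhd and Sdhc and highest for Sdha and Sdhb.

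**Figure D3:**
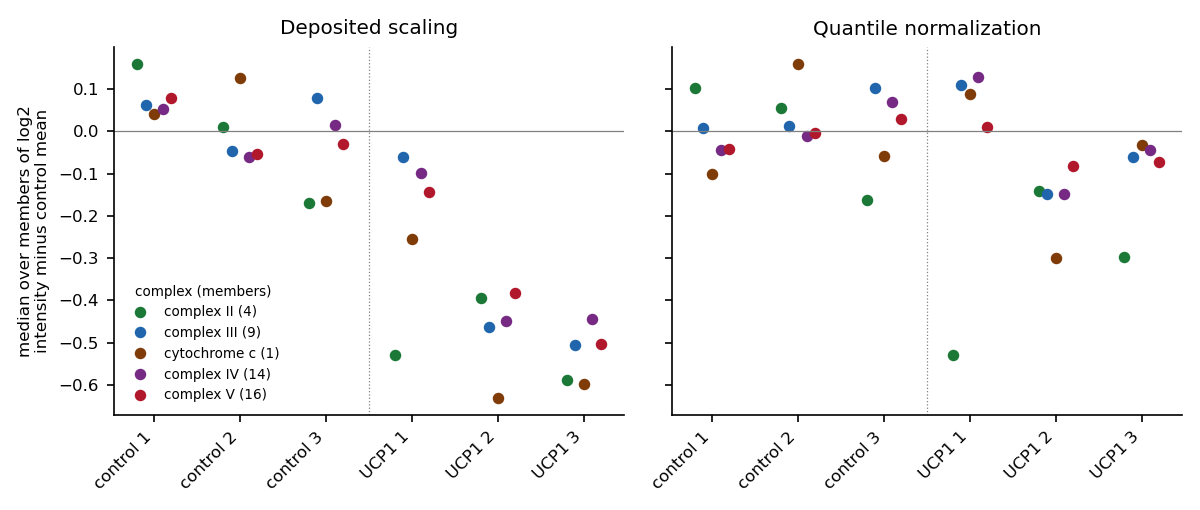
Median over the members of each complex of log2 intensity minus the control mean of the same probe, for each of the 6 arrays, in the deposited scaling and after quantile normalization. In the deposited scaling UCP1 1 sits nearer the controls than UCP1 2 and 3 for complexes III, IV and V. It does not for complex II, whose members were split, with only Sdhd and Sdhc lowest on UCP1 1 among the UCP1 arrays. After quantile normalization UCP1 1 lies above 0 for complexes III, IV and V and is lowest for complex II.

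Control 2 carried a run of low readings that touched 2 members. Cyc1 (feature 19032) and Uqcrb (feature 19033) have adjoining feature numbers, and both read far lower on control 2 than on controls 1 and 3. Of 60 probes at or above the median level numbered 18021 to 19048, 20 (33.3%) were over 2-fold lower on control 2 than on the mean of the other controls, against 19 of 17998 (0.106%) elsewhere. This range of numbers was chosen by its low values on control 2. No other member lay in that range, and both genes are given below with and without control 2.

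Complex II had all 4 members below 0, with a median of -0.46 and 1 call, where 2.03% of all probes were called lower. All 4 stayed below 0 after quantile normalization, with a median of -0.27. The lower values lay in the membrane anchors, which hold the haem and the ubiquinone site. Sdhd, an anchor, read 62.7, 54.0 and 47.7 on controls 1 to 3 and 30.5, 39.2 and 33.1 on the UCP1 arrays. Every UCP1 reading was below every control. It fell by 0.68 ± 0.144 (SE) on the log2 scale, 1.60-fold (limma, adjusted p = 0.0309). Sdhc, the partner anchor, read 71.8, 57.3 and 52.6 in controls and 32.8, 56.7 and 36.1 in UCP1, where the UCP1 2 reading lay within the controls. Its difference was -0.56 ± 0.198 (SE) and did not pass (limma, adjusted p = 0.16).

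The catalytic pair of complex II differed less. Sdha, the flavoprotein that oxidises succinate, read 245, 303 and 319 in controls and 273, 193 and 215 in UCP1, and the groups overlapped. Sdhb, which carries the iron-sulphur clusters, read 69.8, 65.9 and 57.9 in controls and 55.0, 51.7 and 46.8 in UCP1. Its UCP1 readings were all lower, by a mean of 1.26-fold, but neither gene passed (limma, adjusted p = 0.406 and 0.215). Without UCP1 1 the order changed, at -0.60 for Sdhd, -0.50 for Sdha, -0.41 for Sdhc and -0.39 for Sdhb. Whether anchors and catalytic subunits differ from each other was not tested.

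Complex III had 7 of 9 members below 0, a median of -0.39 and 0 calls. At an unadjusted p under 0.05 were 3 members, all lower, where 11.8% of all probes were lower (limma). The 2 core proteins, which face the matrix, were lower on every UCP1 array, as were 14.0% of all probes. Uqcrc1 read 6.73, 5.67 and 7.01 in controls and 5.47, 4.40 and 4.40 in UCP1, a difference of -0.44 (limma, adjusted p = 0.101). Uqcrc2 read 266, 247 and 272 in controls and 242, 178 and 177 in UCP1, a difference of -0.41. The dimmer probe of Uqcrc2 was at -0.66 with overlapping groups. The Rieske iron-sulphur protein Uqcrfs1, which passes electrons on toward cytochrome c1, read 149, 132 and 128 in controls and 108, 98.5 and 95.6 in UCP1. Its difference was -0.43 ± 0.144 (SE) (limma, adjusted p = 0.135).

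Cyc1 and Uqcrb were the 2 members above 0. Cyc1, the cytochrome c1 that reduces cytochrome c, read 185, 48.6 and 194 in controls and 143, 140 and 117 in UCP1. Its difference was 0.14 ± 0.408 (SE) on 6 arrays and -0.51 without control 2. Uqcrb, a small subunit near the ubiquinone site, read 368, 102 and 439 in controls and 427, 285 and 272 in UCP1, giving 0.33 ± 0.438 (SE) and -0.32 without control 2. Without that array all 44 members lay below 0, and the median of complex III went from -0.39 to -0.45.

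Among the other accessory subunits, the hinge protein Uqcrh read 579, 551 and 543 in controls and 535, 386 and 370 in UCP1, at -0.39. A further bright probe of Uqcrh also had all UCP1 arrays below controls, at -0.47. Uqcr11 was at -0.049, with overlapping groups. Uqcr10 had only dim probes, the brighter at -0.11 and the other at 0.14. Uqcrq was dimmest, with readings of 0.171, 0.400 and 0.328 in controls and 0.205, 0.194 and 0.0046 in UCP1, so its difference of -2.31 ± 1.31 (SE) turned on 1 near-zero reading on UCP1 3.

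Cytochrome c itself, Cycs, was lower on every UCP1 array. It read 376, 399 and 326 in controls and 307, 236 and 242 in UCP1. The difference was -0.49 ± 0.193 (SE) and did not pass (limma, adjusted p = 0.209), and it shrank to -0.081 after quantile normalization. The dimmer probe of Cycs was at -0.27 with overlapping groups.

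Complex IV had all 14 members below 0, with a median of -0.38 and 1 call, and 8 members with no overlap between groups. Of all probes 2.03% were called lower. All UCP1 arrays lay below all controls for 14.0% of all probes and 25.9% of the brightest 10%. Cox7a2l, a relative of the Cox7a subunits that joins complex III to complex IV in supercomplexes, gave the call. It read 81.0, 80.6 and 66.7 in controls and 44.1, 52.5 and 41.6 in UCP1, so every UCP1 reading was below every control. It fell by 0.73 ± 0.142 (SE), 1.65-fold (limma, adjusted p = 0.0221), the smallest p of the 44 members, and was at -0.53 after quantile normalization (adjusted p = 0.0718).

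The subunits of complex IV made in most tissues ranged widely, from -0.53 to -0.037, with a median of -0.32 over 10 genes. After quantile normalization the median of these 10 was 0.095 with 4 below 0, and after cyclic loess -0.035 with 5 below 0. Cox4i1, the largest nuclear-encoded subunit, read 370, 353 and 281 in controls and 244, 243 and 204 in UCP1, a 1.45-fold difference (limma, adjusted p = 0.162). Cox7a2, Cox8a and Cox5a were also lower on every UCP1 array, at -0.50, -0.46 and -0.40. Cox7c and Cox6c, at -0.36 and -0.28, had groups that did not overlap and were above 0 after quantile normalization. Cox7b (-0.21) and Cox6b1 (-0.21) had overlapping groups and were also above 0 after quantile normalization. At the other end stood Cox6a1 and Cox5b, likewise above 0 after quantile normalization. Cox6a1 read 661, 622 and 649 in controls and 753, 608 and 540 in UCP1, a difference of -0.037 ± 0.228 (SE). Cox5b, the zinc-binding subunit, read 540, 538 and 555 in controls and 599, 490 and 446 in UCP1, at -0.10. On both probes UCP1 1 was the highest array of all. These readings are near the top of the scale, where the brightest spot of an array read 932 to 943 among controls and 683 to 950 among UCP1 arrays, with the lowest maximum on UCP1 3.

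Complex IV also has tissue-restricted isoforms, which replace a common subunit in some organs. Cox6a2, the heart and muscle form of Cox6a, read 3.81, 3.59 and 6.72 in controls and 2.69, 2.27 and 2.98 in UCP1. All UCP1 readings were lower, control 3 stood above the other controls, and the difference of -0.78 ± 0.213 (SE) did not pass (limma, adjusted p = 0.0752). The muscle-type partners left out of the members were at -1.53 for Cox7a1, which passed (limma, adjusted p = 0.000211), and -0.21 for Cox8b, which did not. The common partners Cox6a1, Cox7a2 and Cox8a were at -0.037, -0.50 and -0.46, so the order of muscle and common form was not the same in the 3 pairs, and the differences between partners were not tested. Of 13 measured striated muscle markers 8 were below the median probe level and 1, myoglobin (Mb), fell, where 2.03% of all probes did. The 13 intensities summed to 60.3 to 93.9 on control arrays against 29.2 to 35.2 on UCP1 arrays. Without Mb those of the other 12 summed to 16.4 to 18.3 against 14.9 to 16.2. The part of other muscle genes in the Cox6a2 value was not tested. Cox4i2, the isoform known from lung, read 0.848 to 1.08 over the 6 arrays and Cox7b2, known from testis, 0.183 to 0.442, both with overlapping groups.

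**Figure D4:**
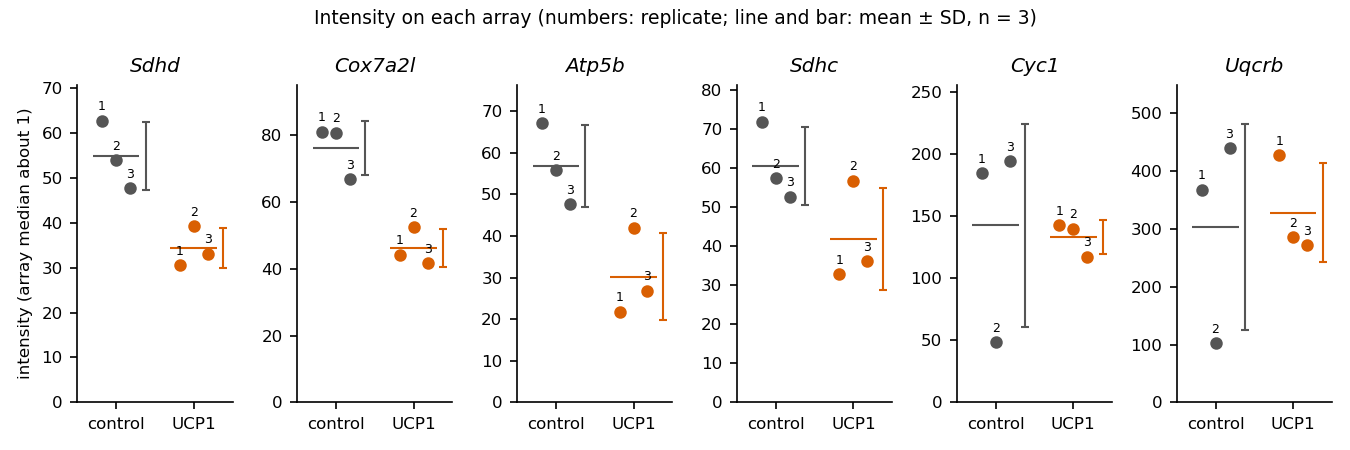
Intensity on each array, numbered by replicate, for the 3 called members (Sdhd, Cox7a2l and Atp5b), for Sdhc and for the 2 members that read low on control 2 (Cyc1 and Uqcrb). Lines and bars give the mean ± SD of 3 arrays. UCP1 2 stands highest of the UCP1 arrays for the first 4 genes.

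Complex V had all 16 members below 0, with a median of -0.38, 1 call and 11 members with no overlap. Of all probes 2.03% were called lower. All UCP1 arrays lay below all controls for 14.0% of all probes and 25.9% of the brightest 10%. After quantile normalization 10 of the 16 members lay below 0 and their median was -0.032. In the F1 head, where ATP is made, Atp5b encodes the catalytic beta subunit. It read 67.1, 55.7 and 47.6 in controls and 21.8, 41.9 and 26.8 in UCP1, with every UCP1 reading below every control. It fell by 0.95 ± 0.213 (SE), 1.94-fold, more than any other member with readings above the median probe level (limma, adjusted p = 0.038). Atp5a1, the alpha subunit that alternates with beta in the head, read 218, 199 and 188 in controls and 161, 152 and 138 in UCP1, a 1.34-fold difference that did not pass (limma, adjusted p = 0.183). Of the central stalk, which turns inside the head, Atp5c1 was at -0.39 with no overlap, and Atp5e and Atp5d, at -0.37 and -0.25, overlapped. Atp5c1 had a further probe near the bottom of the scale with overlapping groups.

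The c-ring, the rotor that protons turn, is built from 1 mature protein encoded by 3 genes. All 3 were lower on every UCP1 array, as were 14.0% of all probes and 25.9% of the brightest 10%. After quantile normalization they were at -0.28 (Atp5g2), 0.059 (Atp5g3) and -0.042 (Atp5g1). Atp5g2 read 84.3, 80.0 and 75.1 in controls and 52.6, 65.9 and 51.7 in UCP1, a difference of -0.50 ± 0.140 (SE) (limma, adjusted p = 0.0818). Atp5g3 read 503, 498 and 462 in controls and 448, 371 and 308 in UCP1, at -0.39. Atp5g1 read 86.4, 78.1 and 77.3 in controls and 70.2, 73.2 and 58.6 in UCP1, at -0.26, while its dimmer probe was at 0.0032 with overlap. No c-ring gene passed, and at an unadjusted p under 0.05 only Atp5g2 did (limma).

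The peripheral stalk holds the F1 head still against the turning rotor. Its 4 members lay between -0.47 and -0.29. Atp5o, which caps the head, read 349, 333 and 346 in controls and 272, 270 and 207 in UCP1, a 1.38-fold difference, and Atp5j and Atp5pb, at -0.42 and -0.32, were also below controls on every UCP1 array. Atp5h, at -0.29, overlapped. The small membrane subunits, which join ATP synthases into dimers and rows, ranged from -0.51 for Atp5k through -0.25 for Atp5l and -0.20 for Atp5md to -0.045 for Atp5mpl. Atp5k read 258, 231 and 234 in controls and 215, 149 and 151 in UCP1. Atp5mpl read 279, 264 and 285 in controls and 325, 240 and 245 in UCP1, so its groups overlapped.

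Many genes of these complexes share promoter sites for nuclear respiratory factor NRF1 and for ETS factors such as GABP. RefSeq promoter windows of GRCm38.p6, 250 bases before to 50 after the start, matched 33 of the 44 members, with 36 windows. Core letters of the NRF1 site (GCATGCG, both strands, as for all motifs here) were in 9 of these windows (25.0%) and in 3.58% of 32851 windows of all genes. ETS letters (CCGGAAG) were in 13 (36.1%) against 8.86%, and the oestrogen-related receptor site (AAGGTCA) in 5 (13.9%) against 4.72%. Sp1 letters (GGGCGG) were in 14 (38.9%) against 35.7%, and YY1 letters (AANATGGC, N any base) in 4 (11.1%) against 6.05%. All windows include those of genes without a protein product. Median differences were much alike with and without a match, at -0.42 for the 9 genes with NRF1 letters and -0.38 for the other 24, and at -0.33 for the 13 with ETS letters and -0.40 for the other 20. The sequences upstream of the 3 called genes are shown because they are the members that passed, with matches to any of the 5 motifs in capitals. For Atp5b (chr10:128083057-128083306, plus strand) and Cox7a2l (chr17:83514334-83514583, minus strand) the capitals are Sp1 letters on either strand. For Sdhd (chr9:50603850-50603900, minus strand) only the 51 bases between its start and that of the neighbouring gene Timm8b are given, and the capitals are ETS letters read on the opposite strand. Further matches in the promoter windows, not wholly within the stretches shown, were YY1 letters for Atp5b and oestrogen-related receptor and Sp1 letters for Sdhd.
Atp5b: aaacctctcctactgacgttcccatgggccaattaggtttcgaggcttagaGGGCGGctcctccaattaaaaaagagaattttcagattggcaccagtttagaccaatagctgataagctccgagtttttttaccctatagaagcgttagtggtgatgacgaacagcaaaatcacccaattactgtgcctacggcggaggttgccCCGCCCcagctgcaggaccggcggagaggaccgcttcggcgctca
Cox7a2l: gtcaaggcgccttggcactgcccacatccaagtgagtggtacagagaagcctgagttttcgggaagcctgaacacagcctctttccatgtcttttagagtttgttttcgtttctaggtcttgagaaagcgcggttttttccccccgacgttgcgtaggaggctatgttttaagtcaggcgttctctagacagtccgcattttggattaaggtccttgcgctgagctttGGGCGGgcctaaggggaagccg
Sdhd: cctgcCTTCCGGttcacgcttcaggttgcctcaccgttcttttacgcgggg

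Genes that serve these complexes without being subunits also had medians below 0 in the deposited scaling, which came nearer 0 after quantile normalization. Of all probes 56.9% lay below 0, 2.03% were called lower and 0.8% higher in the deposited scaling. Of 15 measured transcriptional regulators of respiratory genes 1 passed, the coactivator Ppargc1b, which read 14.6, 15.1 and 13.9 in controls and 9.30, 7.07 and 7.50 in UCP1. It fell by 0.87 ± 0.125 (SE), 1.83-fold (limma, adjusted p = 0.00485), kept its call after quantile normalization (adjusted p = 0.00399) and missed without UCP1 3 (adjusted p = 0.0554). Its relative Ppargc1a read 2.65, 0.841 and 0.591 in controls and 0.318, 0.560 and 0.110 in UCP1, all lower. The difference was -2.02 ± 0.599 (SE) and did not pass (limma, adjusted p = 0.0961). All its readings but that of control 1 lay below the array median, so the size is uncertain, at -1.34 with 0.25 added before log2. Others of this list did not pass, among them Nrf1 at 0.35, the sole member above 0, Gabpa at -0.20, Esrra at -0.34 and Tfam at -0.18 on the log2 scale. The list's median was -0.20 with 14 of 15 below 0, and -0.067 with 10 below 0 after quantile normalization.

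Of 30 measured assembly factors 2 fell and 0 rose, where 2.03% and 0.8% of all probes did. The median of the 30 was -0.20 and 22 lay below 0, against 56.9% of all probes. After quantile normalization the median was -0.017 and 17 lay below 0, against 47.8% of all probes. At an unadjusted p under 0.05, 10 factors passed, all lower, where 11.8% of all probes were lower (limma). Lrpprc, which stabilises mitochondrial messenger RNAs such as those of complex IV, read 9.71, 8.88 and 8.31 in controls and 3.34, 5.76 and 5.24 in UCP1. It fell by 0.94 ± 0.180 (SE) (limma, adjusted p = 0.0199). Uqcc1, needed to build complex III, fell by 0.57 (limma, adjusted p = 0.0454). The Lrpprc call was lost without control 1, control 2 or UCP1 3 (adjusted p = 0.0731, 0.0519 and 0.0906) and after quantile normalization or cyclic loess (0.0616 and 0.0694), and that of Uqcc1 without any 1 control (adjusted p = 0.0730 to 0.185) or UCP1 3 (0.207).

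On the ubiquinone side, 1 of 9 genes of its synthesis fell and 0 rose, where 2.03% and 0.8% of all probes did. All 9 lay below 0 in both the deposited scaling and after quantile normalization, at medians of -0.37 and -0.18. Coq8a, an atypical kinase of the ubiquinone synthesis complex, read 9.37, 6.80 and 6.30 in controls and 2.03, 4.59 and 3.03 in UCP1. It fell by 1.28 ± 0.247 (SE), 2.42-fold (limma, adjusted p = 0.0214), and missed after quantile normalization (adjusted p = 0.053), after cyclic loess (0.0568) and without control 1 or UCP1 3 (adjusted p = 0.0777 and 0.135). None of 7 other electron donors to ubiquinone passed (limma). At an unadjusted p under 0.05 were 4 donors, all lower, where 11.8% of all probes were lower (limma). The smallest p there were those of Gpd2, the mitochondrial glycerol phosphate dehydrogenase, at -0.72 (adjusted p = 0.0668), and Etfb, a subunit of the flavoprotein that collects electrons from fatty acid oxidation, at -0.58 (adjusted p = 0.106).

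The 29 measured subunits of complex I, the entry point for NADH, resembled these complexes. All 29 lay below 0, against 56.9% of all probes, with a median of -0.35. There were 0 calls, where 2.03% of all probes were called lower and 0.8% higher (limma). At an unadjusted p under 0.05 were 11, all lower, where 11.8% of all probes were lower (limma). All UCP1 arrays lay below all controls for 14 of 29, against 14.0% of all probes and 25.9% of the brightest 10%. After quantile normalization 17 lay below 0, against 47.8% of all probes, with a median of -0.067. No test of a difference between complex I and complexes II to V was made.

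Ucp1 itself read 0.222, 0.232 and 0.278 in controls and 2.34, 2.02 and 1.54 in the arrays labelled UCP1, higher on each of them as those labels say (limma, adjusted p = 0.00013). Control readings lay below the array median, so the size of the difference is uncertain, at 3.00 ± 0.234 (SE) on the log2 scale and 2.15 with 0.25 added before log2. Fewer cells of a type and less RNA per cell cannot be told apart in such bulk RNA. Summed intensity of 10 adipocyte markers was 3425 to 3931 in controls and 2821 to 3892 in UCP1. Adipoq and Lpl weighed most in it, at 679 to 932 and 669 to 950 over the 6 arrays, near the top of the scale. Among the 10 were 1 rise (Lep) and 1 fall (Slc2a4), where 0.8% and 2.03% of all probes rose and fell. The adipocyte median was -0.094, and 0.16 after quantile normalization. Of 11 preadipocyte and fibroblast markers 2 rose, Pdgfra and Thy1, with sums of 899 to 1119 in controls and 853 to 1086 in UCP1. Col3a1, which was not called, weighed most in these sums, at 511 to 734 over the 6 arrays. After quantile normalization 4 of these 11 markers rose, with Pdgfrb and Postn also past the threshold, where 567 of 36116 tested probes rose. Of 5 macrophage markers 1 rose, Lyz2, with sums of 11.0 to 16.2 and 13.8 to 14.9. The part of these shifts in the members' differences was not tested.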

How the data were processed

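Spot intensities of 6 one-colour CodeLink arrays were used as deposited, on a linear scale with array medians of 1.04 to 1.05. How spots were scanned, background-corrected and scaled was not given in the sources used here. Spots coded as without a value were treated as missing. Before log2 was taken, any reading of 0 or less was raised to the lowest positive reading on that array. Probes with at least 2 values per group were tested, 36116 of 36227. The platform annotation gave 1 symbol for 21615 probes, several for 681 and none for 13931.

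The UCP1 and control arrays were fitted with limma 3.58.1 (R 4.3.3; lmFit, then eBayes with the trend option), giving two-sided p-values with Benjamini-Hochberg adjustment over all tested probes and a threshold of 0.05. An exact permutation test of 3 against 3 arrays cannot go below 0.1 and was not used. The number of arrays limits the precision. The functions were tested on simulated data.

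Members and gene lists were chosen with earlier results of these data known. Named were all called members, the extremes of each complex, isoforms, members whose probes disagree, and the called genes of each further list, or the 2 with the smallest p. Cox7a1, Cox8b and other genes were named after their values were seen. All 44 member symbols matched RefSeq names of GRCm38.p6. Alternatives covered the offset, scaling, probe filters, the variance model, array weights, the replicate number as a block, the choice of probe and each array left out.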

Additional observations from a re-analysis of the deposited data

How the results depend on the processing

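The members' count of 3 lower calls went to 0 after quantile normalization, cyclic loess, eBayes without trend and an ordinary test per probe, and to 6 on probes at or above the median level or with array weights. It was 11 on the brighter probes without trend, a setting added after seeing the data. eBayes without trend called 0 and the ordinary test 3 of all 36116 probes, so these 2 settings say nothing about the members (17 and 18 of which had an unadjusted p under 0.05). Leaving out each array gave 0 to 11. The adjusted p over all alternatives ranged from 0.00222 to 0.345 for Atp5b, from 0.00716 to 0.239 for Cox7a2l and from 0.0104 to 0.265 for Sdhd, all lower throughout. No member was called higher under any alternative.

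After quantile normalization and cyclic loess the median difference was -0.093 and -0.15 over all members, -0.27 and -0.26 in complex II, -0.10 and -0.12 in complex III, -0.081 and -0.22 for cytochrome c, -0.13 and -0.19 in complex IV, -0.032 and -0.097 in complex V, and -0.067 and -0.088 in complex I. Leaving out each array gave -0.48 to -0.23 in complex IV.

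Single members turned above 0 under both scalings as follows, quantile first: Atp5d 0.19 and 0.043, Atp5md 0.18 and 0.069, Atp5mpl 0.31 and 0.23, Cox5b 0.28 and 0.20, Cox6a1 0.30 and 0.28, Cox6b1 0.095 and 0.055, Cox6c 0.16 and 0.0044, Cox7b 0.25 and 0.076, Uqcr11 0.21 and 0.16. Under quantile normalization alone Atp5e was at 0.065, Atp5g3 at 0.059, Atp5h at 0.16, Cox7c at 0.096 and Uqcrh at 0.066, and under cyclic loess alone Atp5l was at 0.0038. With all probes of a gene averaged, Uqcr10 was at 0.013. Leaving out each array gave -0.51 to 0.49 for Cyc1, -0.32 to 0.73 for Uqcrb, -0.18 to 0.033 for Atp5mpl, -0.17 to 0.072 for Cox6a1, -0.14 to 0.028 for Uqcr11 and -0.22 to 0.0034 for Uqcr10.

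The further pathway lists had 4 lower calls together. These were 2 after quantile normalization or cyclic loess, 11 on the brighter probes and 8 with array weights. They were 7 on the brighter probes without trend, 0 without trend or by an ordinary test, and 0 to 12 with an array left out. Of all tested probes 2.03% were called lower in the main setting, 1.23% after quantile normalization and 1.27% after cyclic loess. That share was 9.5% on the brighter probes, 3.83% with array weights and 9.11% on the brighter probes without trend. With an array left out 159 to 1896 probes were called in either direction. Where calls ended by another variance model or scaling, the cause was not tested.

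With the replicate number, taken from the sample titles, as a replicate block 4 members were called, the same 3 with Cox6a2. In that setting 776 of all probes were called in either direction. Deviations of same-numbered arrays from their group means correlated at -0.24, -0.01 and 0.10, so the numbers were not taken to pair the arrays. The dim probes of Uqcrq, Cox7b2 and Cox4i2 limit what can be said of those genes.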
